A study of Mus musculus with 8 samples.

Results

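Glycolysis, glucose uptake and the pentose phosphate pathway were followed through 33 genes, grouped by step. They comprised 3 glucose transporters, 13 genes of upper glycolysis, 6 of lower glycolysis, 5 of lactate and pyruvate fate and 6 of the pentose phosphate pathway. A gene was read from its brightest probe set, by mean over 8 arrays, among those annotated to that gene alone, and 30 of the 33 genes had one. One gene each of upper glycolysis, lower glycolysis and the pentose phosphate pathway was not analysed here. The 30 genes are a subset of the 18184 genes that had a probe set of their own.

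The cells were bone marrow-derived macrophages (BMDM) from C57Bl/6 mice, grown for 7 days in medium with 15% L929-conditioned supernatant from marrow that had been kept in liquid nitrogen. The wild-type (WT) marrow came from 2 female donors and the miR-155 knockout (miR-155-/-) marrow from 2 male donors, so genotype and sex cannot be told apart. No age was stated for these donors. The study's general BMDM protocol, for young adult female littermates, differs from their labels in L929 share and days of growth. It differs in sex for the knockout donors alone. BMDM of each donor received LPS at 100 ng/ml for 24 h, either alone or after IL-10 at 20 ng/ml added 5 min earlier. The 4 groups, WT(LPS), WT(LPS + IL-10), miR-155-/-(LPS) and miR-155-/-(LPS + IL-10), thus held 2 arrays each, and all of them received LPS. Values are log2 intensities, and a difference of 1 on this scale is a doubling.

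Glycolysis splits glucose into pyruvate in the cytosol. Hexokinases trap glucose as its phosphate, phosphofructokinase commits it to breakdown, and PFKFB enzymes make the fructose bisphosphate that activates phosphofructokinase. The pyruvate is either reduced to lactate and exported by monocarboxylate transporters, or enters the mitochondria unless PDK kinases hold pyruvate dehydrogenase in its inactive form. The pentose phosphate pathway branches off early and yields NADPH and ribose. LPS-stimulated macrophages are known for high glycolytic flux, driven in part by the hypoxia-inducible factor HIF-1, and IL-10, which signals through STAT3, is known to restrain it.

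Because HIF-1 and STAT3 are the usual names in this setting, the promoters of the 3 genes that passed the test in at least 1 comparison were read from RefSeq (GRCm38.p6), 250 bases up to the start site on the strand of the gene. Capitals mark the HIF core, ACGTG or GCGTG on either strand, and the STAT spacing motif TTCNNNGAA. CACGTG, the E-box, holds a HIF core on each strand. Aldoc has 2 annotated starts.
Slc16a1, chr3:104638414-104638663, plus strand: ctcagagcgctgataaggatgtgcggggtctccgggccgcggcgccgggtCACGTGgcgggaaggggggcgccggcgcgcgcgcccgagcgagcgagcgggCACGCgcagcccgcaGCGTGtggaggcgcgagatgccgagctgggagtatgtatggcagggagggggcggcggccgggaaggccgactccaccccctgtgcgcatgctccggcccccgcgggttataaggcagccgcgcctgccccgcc
Aldoc, chr11:78322823-78323072, plus strand: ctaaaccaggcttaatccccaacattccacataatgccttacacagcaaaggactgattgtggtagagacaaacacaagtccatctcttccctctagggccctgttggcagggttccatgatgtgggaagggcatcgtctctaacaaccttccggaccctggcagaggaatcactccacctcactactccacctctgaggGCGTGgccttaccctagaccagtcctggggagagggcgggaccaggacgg
Aldoc, chr11:78323948-78324197, plus strand: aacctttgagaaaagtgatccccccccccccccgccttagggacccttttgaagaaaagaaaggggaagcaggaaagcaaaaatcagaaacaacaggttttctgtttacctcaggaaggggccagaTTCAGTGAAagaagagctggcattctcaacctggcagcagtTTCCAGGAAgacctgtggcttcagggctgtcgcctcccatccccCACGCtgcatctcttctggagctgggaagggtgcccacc
Slc2a6, chr2:27027999-27028248, minus strand: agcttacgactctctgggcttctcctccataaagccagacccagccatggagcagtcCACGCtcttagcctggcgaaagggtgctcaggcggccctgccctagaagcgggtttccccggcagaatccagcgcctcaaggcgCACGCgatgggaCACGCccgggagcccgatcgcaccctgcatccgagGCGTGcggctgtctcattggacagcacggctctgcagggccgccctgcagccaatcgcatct
The Slc16a1 window holds 4 HIF cores, of which 2 are the strands of 1 E-box, whose first base lies 200 bases before the start. The Slc2a6 window also holds 4, the nearest starting 62 bases before the start site. Each Aldoc window holds 1 HIF core, and the downstream one adds 2 STAT motifs, at 124 and 83 bases before the start.

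The HIF core lay in 35 of 43 promoters of the genes followed here (81.4%), against 38.6% of all 32851 promoter windows of the same length and 44% of the 21262 windows of protein-coding genes. Counted by gene, 27 of 29 held it at 1 start or more, against 41.5% of all genes. These windows also differed in base composition, and both motif forms contain CG. Their median GC content was 60.4%, against 52.4% over all windows and 55.6% over those of protein-coding genes. The STAT motif was in 2 of 43 (4.65% against 7.02%) and the E-box in 5 of 43 (11.6% against 6.02%). The match in these letters is a description of the windows, and a promoter entry was found for 29 of the 30 genes. Slc2a3 was the exception.

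The arrays read as macrophages. Of 10 macrophage marker genes 9 were measured, and their median log2 value lay between 12.54 and 12.80 on every array. The fibroblast and stromal list, with 12 of 13 measured, separated WT donor 1 from the rest. Its median log2 value was 9.26 and 9.30 on that donor's arrays and 3.14 to 4.80 on the other 6, and the log2 of its summed intensities 13.70 and 13.73 against 7.22 to 9.39. Col1a1 and Sparc, a collagen chain and a matrix protein, led it there. The neutrophil list, with 9 of 11 measured, had summed values between 11.03 and 13.35. Within it the granule genes were uneven, with Mpo and Elane at log2 values of 1.58 to 2.66, Camp at 4.99 to 6.30 and Mmp8 at 7.33 to 11.02, and S100a8, an alarmin that activated macrophages also make, was at 10.82 to 12.99. Markers of T and NK cells, B cells and of mast cells and erythroid cells had means under 4, and so did 3 of the 4 dendritic cell genes measured. The 5′ minus 3′ difference of the Gapdh control probe sets was between -0.71 and -0.48. In RNA from whole cultures, fewer cells of a type and less RNA per cell cannot be told apart.

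The range of a gene over the 8 arrays, which mixes donor with group differences, had a median of 0.53. That was close to the 0.56 of all probe sets whose mean reached 6. The range was under 0.5 for 14 of the 30 and over 1 for 7. Gapdh, the dehydrogenase often used as a reference gene, spanned 0.07, from 13.32 to 13.40. Pgk1, the first ATP-yielding kinase, spanned 0.13. Aldoa, the main muscle-type aldolase, spanned 0.13 as well. At the other end stood Slc2a6, at 4.19, Slc2a3, at 1.99, Slc16a1, at 1.79, Eno2, at 1.78, Aldoc, at 1.45, Pdk1, at 1.37, and Pfkfb2, at 1.02. The wide ranges thus belonged to transporters, to minor isoforms and to regulatory enzymes, while the abundant enzymes of lower glycolysis stayed within 0.24 of a log2 unit, Eno2 apart.

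**Figure D1:**
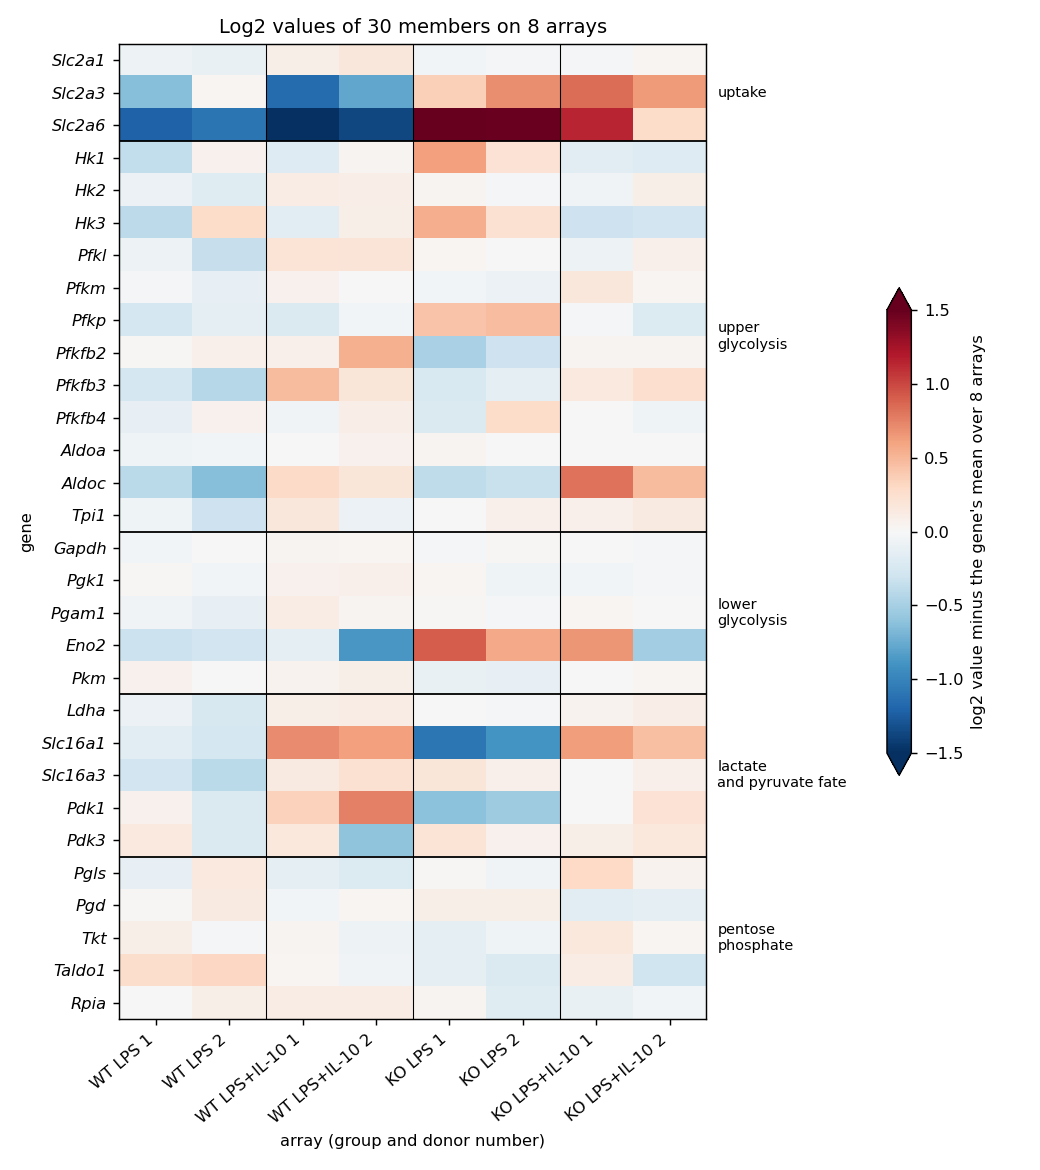
Log2 value of each of 30 genes on each of 8 arrays, as the deviation from that gene's mean over the arrays. Rows are genes in order of the pathway, columns are arrays by group and donor number, and the colour scale is cut at 1.5 in either direction. Slc2a6 is above its mean on all 4 knockout arrays and Slc16a1 on all 4 LPS + IL-10 arrays, while the rows of lower glycolysis, Eno2 apart, stay pale.

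What IL-10 did in WT cells was asked first. With IL-10, 22 of the 30 genes had a positive log2 fold change and 8 a negative one, and the median was 0.08, beside 0.00 over all 45021 probe sets. None passed an adjusted p of 0.05 (limma, Benjamini-Hochberg over all probe sets), in a comparison in which 0.0311% of probe sets did. At an unadjusted p under 0.05, 7 were higher and 1 lower, beside 4.69% and 4.58% of all probe sets. Shares over all probe sets include many dim ones, as the median of their means was 3.91. In a separate fit of the 15439 probe sets whose mean reached 6, 1186 were higher and 1553 lower at that threshold. The gene counts given here are not from that fit. All 12 genes of upper glycolysis were on the positive side, with a median of 0.17, and 4 of 5 genes of lactate and pyruvate fate, with a median of 0.53. Hk1 and Hk3 of upper glycolysis were positive through WT donor 1 alone, with differences of -0.02 and -0.19 in WT donor 2. In the pentose phosphate pathway 1 of 5 was positive, and the median was -0.09.

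The lactate transporter Slc16a1 (MCT1) had the largest positive log2 fold change with IL-10 in WT. It read 9.79 and 9.68 with LPS and 10.66 and 10.56 with IL-10 added, so the IL-10 arrays lay above the LPS arrays without overlap. The log2 fold change was 0.88 (SE 0.125), a ratio of 1.84, with a limma adjusted p of 0.0951. Aldoc, the aldolase isoform best known from brain, read 7.81 and 7.59 with LPS and 8.51 and 8.40 with IL-10 added. Its log2 fold change was 0.76 (SE 0.143, limma adjusted p 0.171).

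Pfkfb3, the PFKFB isoform with the strongest kinase activity, read 10.94 and 10.78 with LPS and 11.68 and 11.39 with IL-10. Its log2 fold change was 0.68 (SE 0.127, limma adjusted p 0.168). Both IL-10 arrays were the higher ones, and a second, dimmer Pfkfb3 probe set gave 0.75. Pdk1, which inactivates pyruvate dehydrogenase, read 11.91 and 11.64 with LPS and 12.19 and 12.60 with IL-10. The log2 fold change of Pdk1 was 0.62 (SE 0.173, limma adjusted p 0.361), and its 3 other probe sets gave 0.60 to 0.70. It gained 0.28 in WT donor 1 and 0.96 in WT donor 2. Slc16a3 (MCT4), the lactate exporter of glycolytic cells, read 9.84 and 9.71 with LPS and 10.26 and 10.35 with IL-10, a log2 fold change of 0.53 (SE 0.114, limma adjusted p 0.235). All 5 genes were picked by an unadjusted p under 0.05, which largely fixes that their IL-10 and LPS arrays do not overlap. None of them was called.

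Slc2a3 (GLUT3), a high-affinity glucose transporter, had the most negative log2 fold change with IL-10 in WT. It read 6.64 and 7.31 with LPS and 6.12 and 6.50 with IL-10, a log2 fold change of -0.66 (SE 0.218, limma adjusted p 0.449). A second probe set of Slc2a3 gave -1.08 (limma adjusted p 0.112). Taldo1, transaldolase of the non-oxidative pentose phosphate branch, read 10.58 and 10.62 with LPS and 10.34 and 10.25 with IL-10. Its log2 fold change of -0.30 (SE 0.140, limma adjusted p 0.563) was the largest in size among the pentose phosphate genes in WT. The principal macrophage glucose transporter Slc2a1 (GLUT1) had values between 12.54 and 12.59 with LPS and between 12.75 and 12.83 with IL-10, a log2 fold change of 0.22.

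In the knockout, 2 genes were called higher with IL-10. The 30 genes divided evenly, 15 positive and 15 negative, with a median of 0.01, beside 0.01 over all probe sets. Slc16a1 and Aldoc passed the adjusted threshold, both higher, in a comparison in which 1.26% of probe sets were called higher. At an unadjusted p under 0.05, 5 were higher and 5 lower, beside 8.88% and 8.4% of all probe sets. In the fit of the 15439 probe sets whose mean reached 6, 2915 were higher and 2695 lower at that threshold. Upper glycolysis was split, with 5 positive and 7 negative.

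Slc16a1 read 8.87 and 9.05 with LPS and 10.57 and 10.40 with IL-10. It rose 2.88-fold, a log2 fold change of 1.53 (SE 0.125, limma adjusted p 0.00315). Leaving out any 1 array kept the call, with a limma adjusted p of at most 0.0454. A second, dimmer Slc16a1 probe set, at a mean of 4.08, gave 1.24 in the knockout and 0.85 in WT, without passing. The median of the means over all probe sets was 3.91. Aldoc read 7.85 and 7.89 with LPS and 9.04 and 8.69 with IL-10. It rose 2.00-fold, a log2 fold change of 1.00 (SE 0.143, limma adjusted p 0.0190). The Aldoc call was lost without any 1 of the 4 knockout arrays, at limma adjusted p values of 0.0549 to 0.166. A second Aldoc probe set gave 0.58 (limma adjusted p 0.213).

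Pdk1 was on the same side, at 11.23 and 11.32 with LPS and 11.85 and 12.07 with IL-10 in the knockout, a log2 fold change of 0.68 (SE 0.173, limma adjusted p 0.101). Its 3 other probe sets gave 0.79 to 0.94, and 1 of them was called (limma adjusted p 0.0334). Pfkfb3 read 10.98 and 11.07 in miR-155-/-(LPS) and 11.35 and 11.46 with IL-10, a log2 fold change of 0.38 (SE 0.127, limma adjusted p 0.190).

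Of the 15 genes on the negative side in the knockout, none was called, beside 638 of all 45021 probe sets called lower. The 5 with an unadjusted p under 0.05 were Slc2a6, Hk1, Hk3, Pfkp and Pgd. Other genes of upper glycolysis were on the positive side, among them Pfkfb2 at 0.44 and Pfkfb3 at 0.38. Slc2a6 (GLUT6), a transporter found on intracellular membranes of macrophages, read 9.49 and 8.49 with LPS and 8.15 and 7.28 with IL-10, a log2 fold change of -1.27 (SE 0.304, limma adjusted p 0.0872). Within each knockout donor the value was lower with IL-10, by 1.34 and 1.20. Knockout donor 1 was above donor 2 in both treatments, and with the donor as a fixed term in a paired fit the limma adjusted p was 0.00766. Hk1, a hexokinase, read 9.77 and 9.37 with LPS and 8.99 and 8.96 with IL-10, a log2 fold change of -0.59 (SE 0.172, limma adjusted p 0.136). Hk3, the hexokinase of myeloid cells, read 11.30 and 10.99 with LPS and 10.46 and 10.48 with IL-10, a log2 fold change of -0.68 (SE 0.201, limma adjusted p 0.144). Pfkp, the platelet-type phosphofructokinase, read 10.31 and 10.34 with LPS and 9.86 and 9.68 with IL-10, a log2 fold change of -0.55 (SE 0.121, limma adjusted p 0.0690). Pgd had a log2 fold change of -0.25 (SE 0.105, limma adjusted p 0.285). The second probe sets of Hk1 and Hk3 gave smaller differences, -0.16 and -0.28. Those of Pfkp gave 0.16 and 0.21 at mean log2 values of 5.92 and 3.54.

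Eno2, the neuronal enolase, read 8.78 and 8.43 in the knockout with LPS and 8.53 and 7.34 with IL-10. The value was lower with IL-10 in each knockout donor, by 0.25 and 1.09, and donor 1 was above donor 2 in both treatments. The log2 fold change of -0.67 (SE 0.343, limma adjusted p 0.384) was not called, and it was between -1.21 and -0.12 when 1 array was left out. Of the 9 neutrophil genes, 6 were positive and 3 negative with IL-10 in WT (median 0.11), and 3 positive and 6 negative in the knockout (median -0.05), with 1 called higher there. The summed log2 value of the list, most of it S100a8, was 12.45 to 12.54 in WT with LPS and 13.30 to 13.35 with IL-10, and 11.03 to 11.28 and 12.54 to 12.82 in the knockout. Under LPS alone, 3 of the 9 genes were called lower in the knockout, beside 232 of all 45021 probe sets. With IL-10 present 1 of the 9 was called lower there, beside 15 of all 45021. The part of these cells or genes in the differences of the genes followed here was not tested.

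**Figure D2:**
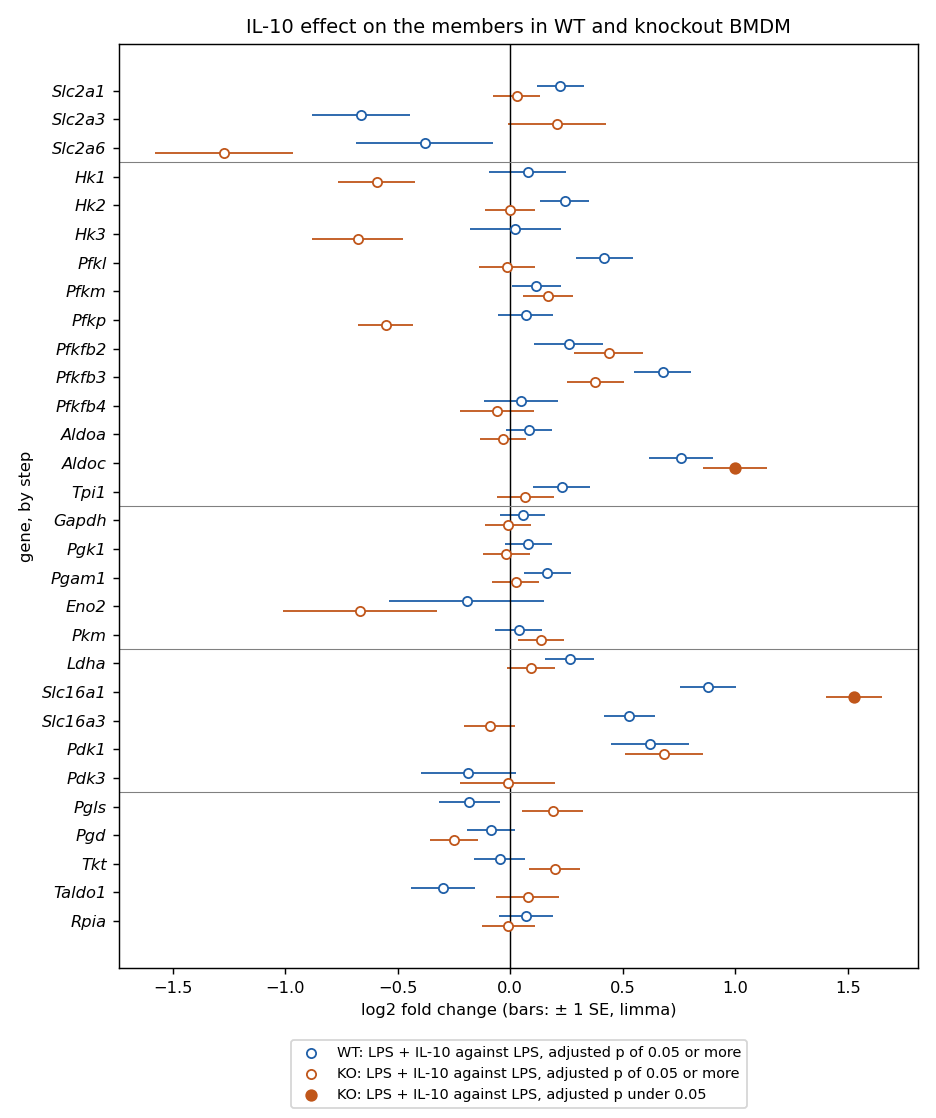
Log2 fold change of LPS + IL-10 against LPS for 30 genes, in WT (blue) and knockout (orange) BMDM. Points are limma estimates from 2 arrays a group, bars are 1 SE, horizontal lines divide the steps, and filled points passed an adjusted p of 0.05. Filled points stand at Slc16a1 (1.53) and Aldoc (1.00) in the knockout.

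Whether the IL-10 effect differed by genotype was tested by the difference of the 2 effects, knockout minus WT. Of the 30 genes 11 were positive and 19 negative, with a median of -0.11, beside 0.00 over all probe sets. None was called, in a test that called 0.0333% of probe sets. At an unadjusted p under 0.05, 2 were higher and 5 lower in the knockout, beside 5.43% and 5% of all probe sets. In the fit of the 15439 probe sets whose mean reached 6, 1941 were higher and 1339 lower at that threshold. Slc2a3 had the largest positive difference, 0.87 (SE 0.308, limma adjusted p 0.433), and a second Slc2a3 probe set gave 1.38 (limma adjusted p 0.206). For Slc16a1 the difference was 0.65 (SE 0.177, limma adjusted p 0.348), so the larger rise in the knockout was not shown to differ from the WT value.

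On the negative side, Slc2a6 had the largest difference, -0.89 (SE 0.430, limma adjusted p 0.518), at an unadjusted p of 0.0765. The 5 with an unadjusted p under 0.05 were Hk3, Hk1, Pfkp, Slc16a3 and Pfkl, the liver-type phosphofructokinase, at -0.43 (SE 0.178, limma adjusted p 0.470). Hk3 had -0.70 (SE 0.285, limma adjusted p 0.468), Hk1 -0.67 (SE 0.243, limma adjusted p 0.436), Pfkp -0.62 (SE 0.171, limma adjusted p 0.356) and Slc16a3 -0.62 (SE 0.161, limma adjusted p 0.330). Slc16a3 read 10.30 and 10.19 in miR-155-/-(LPS) and 10.12 and 10.19 with IL-10, where WT cells had gained 0.42 and 0.64 in their donors. Aldoc (0.24) and Pdk1 (0.06) had similar estimates in both genotypes, with SEs of 0.202 and 0.245 and limma adjusted p values of 0.706 and 0.955.

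Within donors, 10 of the 30 genes were higher with IL-10 in all 4 donors and 2 were lower, beside 10.6% and 11.1% of all probe sets. The 10 were Slc2a1, Pfkm, Pfkfb2, Pfkfb3, Aldoc, Tpi1, Pgam1, Ldha, Slc16a1 and Pdk1, and the 2 were Slc2a6 and Pgd, the second dehydrogenase of the oxidative pentose phosphate branch. Some of the 10 differences were small. Ldha, which makes lactate, gained 0.18 and 0.35 in the WT donors and 0.05 and 0.13 in the knockout donors, and Slc2a1 gained 0.16 and 0.28, then 0.01 and 0.05. By step, 5 of the 12 upper glycolysis genes and 3 of the 5 of lactate and pyruvate fate were higher in all 4 donors, and no pentose phosphate gene was.

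**Figure D3:**
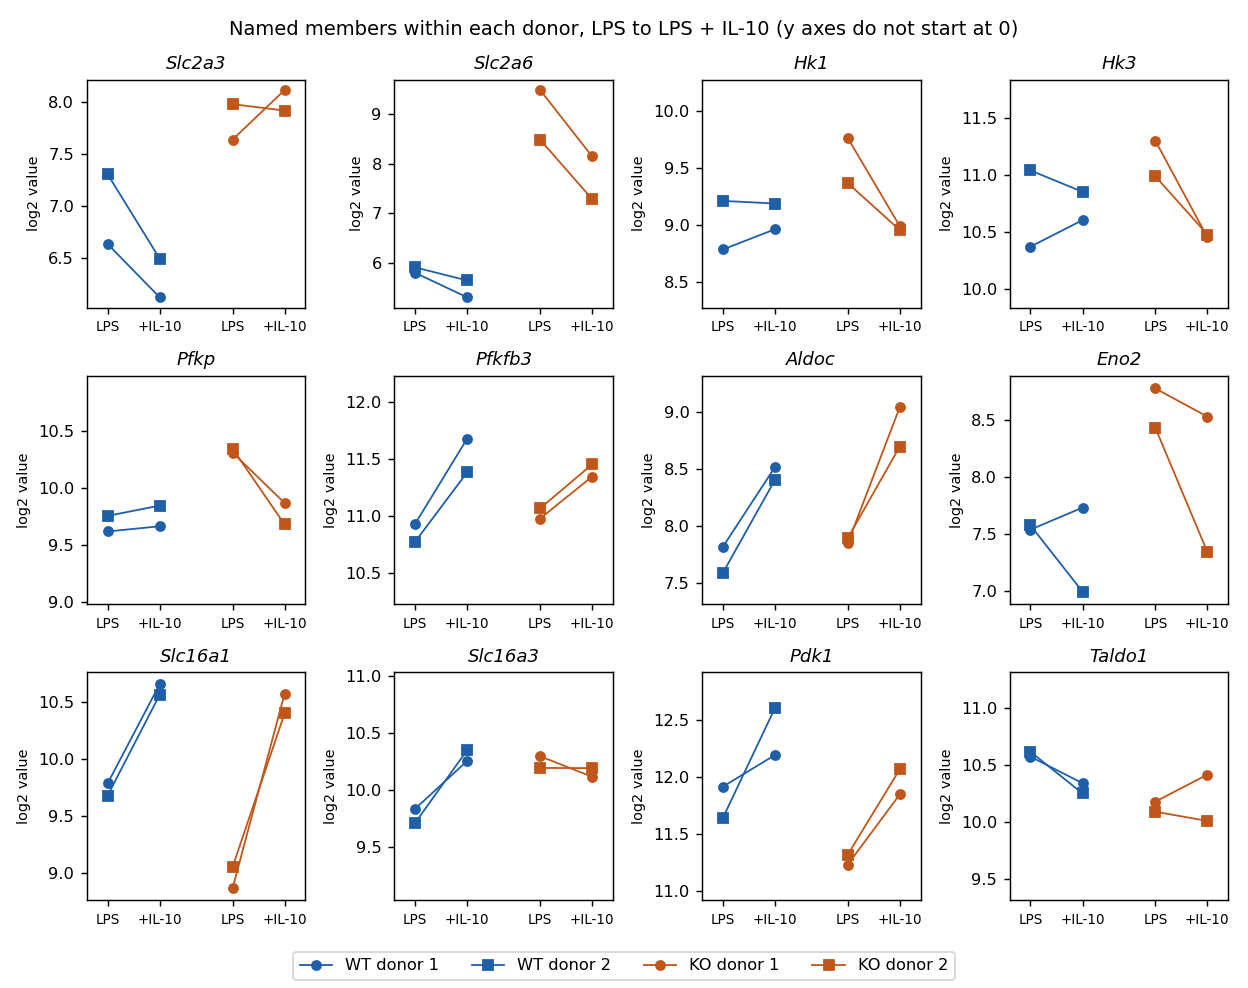
Log2 value of 12 genes with LPS and with LPS + IL-10, 1 panel a gene. Each line joins the 2 arrays of 1 donor, with WT in blue and knockout in orange, and no panel's y axis starts at 0. Slc16a1, Aldoc, Pfkfb3 and Pdk1 slope up in all 4 donors, Slc2a6 slopes down in all 4, and Hk1, Hk3 and Pfkp slope down in both knockout donors.

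How the knockout differed from WT under LPS alone was the next comparison. It uses the same WT(LPS) and miR-155-/-(LPS) arrays as the IL-10 effects above, so its values are not independent of them. Of the 30 genes 21 were higher in the knockout and 9 lower, with a median of 0.08, beside 0.02 over all probe sets. Slc2a6 was called higher, in a comparison in which 0.951% of probe sets were called higher. No gene was called lower, beside 232 of all 45021 probe sets. At an unadjusted p under 0.05, 6 were higher and 4 lower, beside 7.8% and 6% of all probe sets. In the fit of the 15439 probe sets whose mean reached 6, 2106 were higher and 1957 lower at that threshold.

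Slc2a6 read 5.80 and 5.91 in WT(LPS) and 9.49 and 8.49 in miR-155-/-(LPS). It was 8.80-fold higher in the knockout, a log2 fold change of 3.14 (SE 0.349, limma adjusted p 0.0132). Every knockout array was above every WT array, in both treatments. Without WT donor 1, whose arrays carried the stromal markers, the log2 fold change was 3.08 (limma adjusted p 0.0810). The call was also lost without WT(LPS) replicate 1 (limma adjusted p 0.109), WT(LPS) replicate 2 (limma adjusted p 0.0660) or miR-155-/-(LPS) replicate 1 (limma adjusted p 0.0949), with log2 fold changes of 2.76 to 3.16. Slc2a6 has 1 probe set on the array.

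Slc16a1 was on the low side in the knockout under LPS, at 8.87 and 9.05 against 9.79 and 9.68, a log2 fold change of -0.77 (SE 0.143, limma adjusted p 0.0570). Pdk1 was there too, at 11.23 and 11.32 against 11.91 and 11.64, a log2 fold change of -0.50 (SE 0.198, limma adjusted p 0.328), and its 3 other probe sets gave -0.90 to -0.55. Taldo1 read 10.18 and 10.09 against 10.58 and 10.62 in WT, a log2 fold change of -0.46 (SE 0.161, limma adjusted p 0.266). Each of these 3 genes had an unadjusted p under 0.05, and none was called.

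On the high side, Pfkp read 10.31 and 10.34 in the knockout against 9.61 and 9.75 in WT, a log2 fold change of 0.64 (SE 0.139, limma adjusted p 0.0873). Slc16a3 stood at 10.30 and 10.19 against 9.84 and 9.71, a log2 fold change of 0.47 (SE 0.131, limma adjusted p 0.166). Eno2 read 8.78 and 8.43 against 7.54 and 7.58, a log2 fold change of 1.05 (SE 0.394, limma adjusted p 0.303). Hk1 read 9.77 and 9.37 against 8.79 and 9.21, a log2 fold change of 0.57 (SE 0.197, limma adjusted p 0.261). Without WT donor 1 the Hk1 value was 0.35, over 1.5 times smaller, and that of Slc2a3 was 0.50 in place of 0.84 (SE 0.250, limma adjusted p 0.194). Hk3 had 0.44 (SE 0.231), and its WT arrays, at 10.37 and 11.04, overlapped the knockout ones, at 11.30 and 10.99. Without WT donor 1 the Hk3 value was 0.10.

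With IL-10 present, 10 of the 30 genes were higher in the knockout and 20 lower, with a median of -0.06, beside 0.03 over all probe sets. None was called, in a comparison in which 0.0711% of probe sets were. At an unadjusted p under 0.05, 3 were higher and 0 lower, beside 5.59% and 3.35% of all probe sets. The 3 were the glucose transporters Slc2a6 and Slc2a3, and Aldoc. In the fit of the 15439 probe sets whose mean reached 6, 1513 were higher and 785 lower at that threshold. Slc2a6 read 8.15 and 7.28 in the knockout against 5.30 and 5.64 in WT, a log2 fold change of 2.25 (SE 0.349, limma adjusted p 0.113).

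Slc2a3 read 8.11 and 7.92 against 6.12 and 6.50, a log2 fold change of 1.71 (SE 0.250, limma adjusted p 0.0974). A second, slightly dimmer Slc2a3 probe set gave 2.08 (SE 0.186) and was called (limma adjusted p 0.0247), and the remaining pair had means of 2.31 and 2.12, near the lower quartile of all probe sets (2.31). The brightest and the called Slc2a3 probe sets are both of types whose probes can also bind other transcripts. So are the brightest ones of Hk3, Aldoa, Pgd and Tkt. Aldoc read 9.04 and 8.69 against 8.51 and 8.40, a log2 fold change of 0.41 (SE 0.164, limma adjusted p 0.533). Slc16a1, which had differed by -0.77 under LPS, differed by -0.12 here, and Pfkp by 0.02 in place of 0.64.

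**Figure D4:**
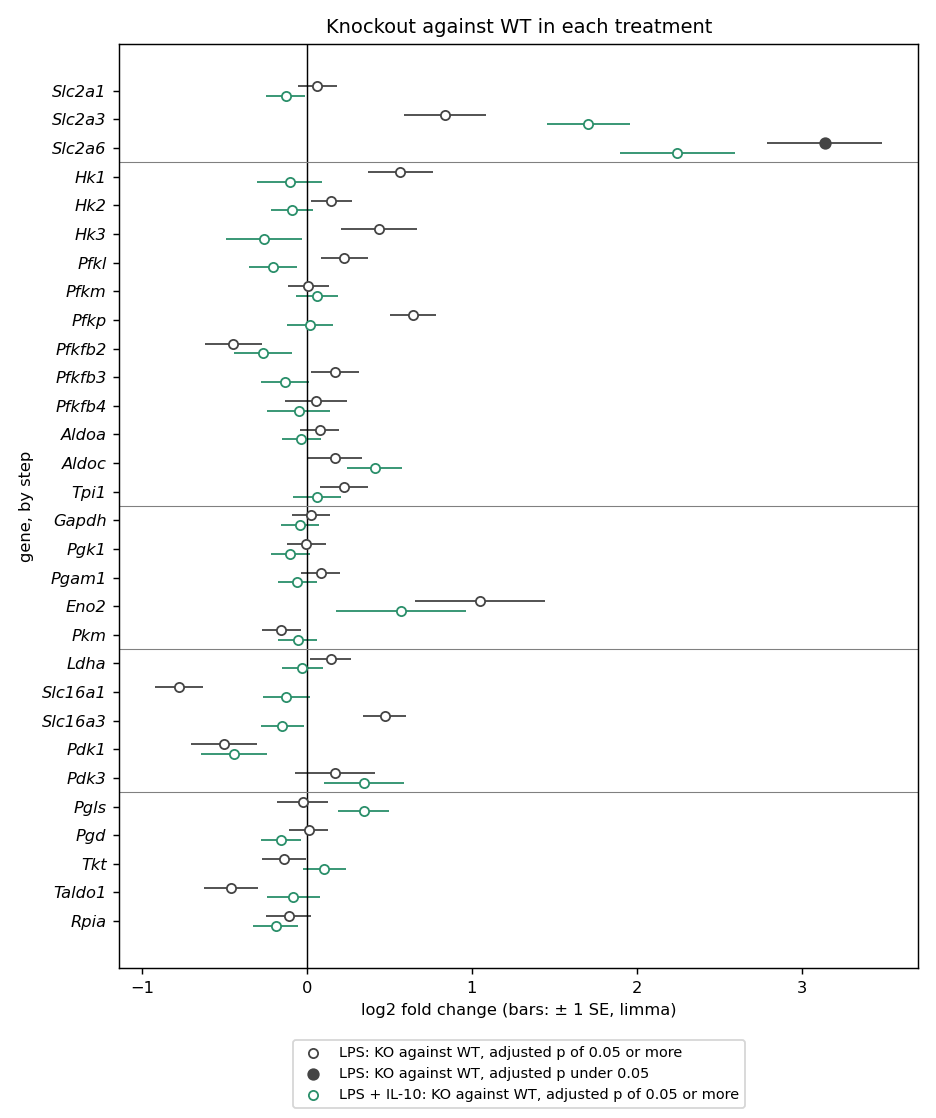
Log2 fold change of knockout against WT for 30 genes, with LPS alone (grey) and with LPS + IL-10 (green). Points are limma estimates from 2 arrays a group, bars are 1 SE, horizontal lines divide the steps, and the filled point passed an adjusted p of 0.05. Slc2a6 (3.14 and 2.25) and Slc2a3 (0.84 and 1.71) stand to the right in both treatments.

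For the enzymes with narrow ranges over the arrays, those ranges already bounded the differences between groups. In lower glycolysis, the brightest probe sets of Gapdh, Pgk1, Pgam1 and Pkm had log2 fold changes between -0.16 and 0.17 in the 5 comparisons. Dimmer Pgk1 probe sets went beyond that, with -0.31 and -0.29 for the difference of the IL-10 effects and 0.22 in 1 for IL-10 in WT. Both are of a type whose probes can also bind other transcripts. None of the 5 genes of the step was called. Pgk1 and Pdk3 lie on the X chromosome, and donors of each genotype were of 1 sex. Pdk3 had values of 0.17 and 0.35 for knockout against WT without and with IL-10 (SE 0.242 each). Leaving out 1 array took them to between 0.07 and 0.28 and to between 0.00 and 0.69, and without WT donor 1 they were 0.355 and 0.728. WT(LPS + IL-10) replicate 2 was its lowest array. The oxidative and non-oxidative pentose phosphate genes Pgls, Pgd, Tkt, Taldo1 and Rpia had values between -0.46 and 0.38.

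Other genes of the pathways gave few calls. Of 35 other glycolysis and glucose genes, 1 was called higher with IL-10 in the knockout and 1 lower in the knockout under LPS, and both were Galm, the epimerase that turns beta-glucose into the alpha form. In WT cells Galm read 8.65 and 8.74 with LPS and 8.81 and 8.48 with IL-10. In knockout cells it read 7.79 and 7.54 with LPS and 8.77 and 8.45 with IL-10. It rose by 0.94 with IL-10 in the knockout (SE 0.158, limma adjusted p 0.0317) and was 1.03 lower in the knockout under LPS, a log2 fold change of -1.03 (SE 0.181, limma adjusted p 0.0493). The 2 results share the miR-155-/-(LPS) arrays, which were the low ones. The first call was lost without any 1 of the 4 knockout arrays or the 2 WT(LPS) arrays (limma adjusted p 0.0612 to 0.208), and the second without any 1 of the 8 arrays (limma adjusted p 0.0557 to 0.217) or without WT donor 1 (limma adjusted p 0.122).

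Gys1, the glycogen synthase of muscle and most other tissues, had its high values where Galm had its low ones. In WT cells it read 6.39 and 6.62 with LPS and 7.17 and 7.00 with IL-10, and in knockout cells 7.66 and 7.37 with LPS and 6.95 and 7.17 with IL-10. Its log2 fold change was 1.01 for knockout against WT under LPS (SE 0.182, limma adjusted p 0.0528), and the difference of its IL-10 effects was -1.03 (SE 0.225, limma adjusted p 0.285). Among 9 other pentose phosphate genes, H6pd, which runs the first oxidative steps inside the endoplasmic reticulum, was called lower in the knockout under LPS. It read 9.93 and 9.89 in WT(LPS) against 9.13 and 8.95, a log2 fold change of -0.87 (SE 0.133, limma adjusted p 0.0329), and -0.75 with IL-10 (limma adjusted p 0.155). The call was lost without any 1 of the 8 arrays (limma adjusted p 0.0521 to 0.191) or without WT donor 1 (limma adjusted p 0.145), with log2 fold changes of -0.98 to -0.77. None of 17 other lactate and pyruvate genes was called in the 5 comparisons.

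Of 25 regulators, 1 was called with IL-10 in the knockout and 1 between genotypes under LPS, and both were Il10ra, the ligand-binding chain of the IL-10 receptor. The WT values of Il10ra were 7.45 and 7.49 with LPS and 7.13 and 7.28 with IL-10. The knockout values were 8.24 and 8.40 with LPS and 7.30 and 7.31 with IL-10. It was higher by 0.85 in the knockout under LPS (SE 0.129, limma adjusted p 0.0323) and fell by 1.02 there with IL-10 (SE 0.113, limma adjusted p 0.00774). The fall was no longer called without any 1 of the 4 knockout arrays (limma adjusted p 0.0642 to 0.0756). The difference under LPS was not called without any 1 of those or the 2 WT(LPS) arrays (limma adjusted p 0.0815 to 0.188), or without WT donor 1 (limma adjusted p 0.133). With IL-10 present the genotypes differed by 0.10 (SE 0.129).

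Hif1a, the regulated subunit of HIF-1, read 11.71 to 11.86 in WT cells with LPS, 12.01 to 12.03 with IL-10 added and 11.74 to 11.82 on the 4 knockout arrays, with log2 fold changes of 0.23 in WT and 0.03 in the knockout and no call. Egln3, a prolyl hydroxylase that marks HIF for destruction and is itself a HIF target, read 8.92 and 8.29 in WT cells with LPS and 9.94 and 9.48 with IL-10, a log2 fold change of 1.10 (SE 0.227, limma adjusted p 0.211). In the knockout it read 7.90 and 8.13 with LPS and 8.04 and 8.54 with IL-10, which left it 1.42 lower than WT with IL-10, a log2 fold change of -1.42 (SE 0.260, limma adjusted p 0.168). Sirt6, a deacetylase known to repress glycolytic genes, read 9.78 and 9.33 in miR-155-/-(LPS) against 8.36 and 8.73 in WT(LPS), a log2 fold change of 1.01 (SE 0.256, limma adjusted p 0.133). With IL-10 the Sirt6 value in the knockout differed by -0.86 (SE 0.224, limma adjusted p 0.108) from that with LPS alone.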

How the data were processed

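For 8 BMDM cultures the authors amplified RNA with NuGEN kits and hybridized it to Affymetrix mouse genome arrays. The deposited values are log2 intensities made by the authors with RMA (affy), which corrects background, normalizes by quantiles and gives 1 value per probe set. Tool versions were not given in the sources used here, and precision is limited by the 2 arrays a group.

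Donors were paired by genotype and replicate number in the labels. Deviations from group means correlated at 0.754 (WT) and 0.230 (knockout) within a donor. Of 45101 probe sets, 34958 carried 1 symbol, 932 several and 9211 none, and 34754 of the 34958 matched RefSeq (GRCm38.p6) by Entrez ID. After 51 controls and 29 Y-linked or Xist probe sets were left out, 45021 were tested. Gapdh was read from its control probe sets.

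The 5 comparisons were fitted together on all arrays in R 4.3.3 with limma 3.58.1 (group means, donor as a random block through duplicateCorrelation), with Benjamini-Hochberg adjustment over all probe sets. The fit was checked on simulated data. Replicates were different donors.

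Values on every array were given for a gene with an adjusted p under 0.05, or an unadjusted p below 0.05 with a log2 fold change beyond 0.5 in size (beyond 1 for genes outside the 33). They were also given for the gene of each step with the log2 fold change largest in size for IL-10 in WT. Genes and lists were chosen with earlier results of these data known. Alternatives included other spread models, filters, scalings, blocks and left-out arrays.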

Additional observations from a re-analysis of the deposited data

Results flagged for a closer look

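In Pfkp and Slc16a3 the IL-10 differences were positive in both WT donors and negative in both knockout donors, and that of Slc16a3 in knockout donor 2 was close to 0. For Pfkp the log2 differences were 0.05 and 0.09 in the WT donors and -0.44 and -0.66 in the knockout donors, and the tested difference of -0.62 had a limma adjusted p of 0.356. For Slc16a3 they were 0.42 and 0.64 in WT and -0.18 and -0.0019 in the knockout, and the difference of -0.62 had a limma adjusted p of 0.330.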

How the results depend on the processing

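With 2 arrays a group, the number of calls depended on how the spread was modelled more than the estimates did. Restricting the fit to probe sets whose mean reached 6 gave 4 calls for IL-10 in WT, 8 for IL-10 in the knockout, 4 for the knockout under LPS and 2 with IL-10, against 0, 2, 1 and 0 as reported. Of the 15439 probe sets in that fit, 149 were called higher and 178 lower for IL-10 in WT. The counts were 1637 and 1545 for IL-10 in the knockout, 859 and 663 for the knockout under LPS and 152 and 63 with IL-10. A robust spread with an intensity trend gave 4, 5, 4 and 2. Over all 45021 probe sets the trend fit called 1205 higher and 1217 lower for IL-10 in the knockout. It called 944 and 632 for the knockout under LPS, and 204 and 91 with IL-10. Array weights gave 4 for IL-10 in the knockout and 2 for the knockout under LPS. Over all probe sets they gave 1189 higher and 1222 lower calls, then 558 and 323. The mean over a gene's probe sets gave 1 for IL-10 in WT, beside 34 higher and 26 lower of 18184 genes. For the knockout under LPS, fitting the 2 groups alone or leaving out WT donor 1 gave 0. Leaving out single arrays gave 1 to 2 calls for IL-10 in the knockout and 0 to 1 for the knockout under LPS.

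The median log2 fold change of the 30 genes ranged without single arrays from 0.0727 to 0.120 for IL-10 in WT, 0.0119 to 0.0552 in the knockout, 0.0699 to 0.104 for the knockout under LPS, -0.0664 to -0.0450 with IL-10 and -0.138 to -0.103 for the difference of the IL-10 effects. It was 0.0332 for IL-10 in the knockout with gene means, 0.124 and -0.0172 for the knockout without and with IL-10 after centring arrays on their medians, and -0.133 (second quantile normalization) and -0.136 (WT donor 1 left out) for the difference. Pfkp's difference turned to 0.0053 with gene means, which include 2 dim probe sets.

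Omitting the replicate block changed no call among the genes (2 calls for IL-10 in the knockout), and a replicate block as a fixed donor term gave 3 there, adding Slc2a6. Over all probe sets, IL-10 in WT gave 4 higher and 10 lower calls as reported, 0 and 0 with no replicate block, and 123 and 121 with the trend. Of 517 recomputed values of named genes among the 30, 475 kept direction and side of the threshold, 32 gained a call, 9 lost one and 1 reversed. The values belong to 28 results, most of them not called as reported, and for those keeping the side means staying uncalled.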
